A study of Mus musculus with 3 samples.

Results

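The genes described here encode 10 transcription factors of the limb mesenchyme, the loose embryonic tissue from which limb bones, cartilage, tendon and dermis arise. They were picked by gene symbol (Prrx1, Prrx2, Twist2, Tbx15, Tbx18, Tbx5, Pitx1, Shox2, Meox1 and Meox2). Earlier results of these data were known when they were chosen, so their counts beside those of all genes are descriptive only. All 10 were among the 18193 genes with a probe set of their own on the array, with 21 probe sets between them. Their signals were compared over 3 populations of endosteal cells, the cells along the inner surface of bone, freed with collagenase from the femur and tibia of C57BL/6 mice. All 3 populations lacked CD45, CD31 and Ter119, which mark leukocytes, endothelial cells and erythroid cells, and were sorted by the cell adhesion protein ALCAM and by Sca-1, which is found on many stem and progenitor cells. They were ALCAM(+) Sca-1(-) cells (called ALCAM+), ALCAM(-) Sca-1(+) cells (called Sca-1+) and ALCAM(-) Sca-1(-) cells (called double-negative). Each population was hybridised to 1 array, so no difference has a replicate check and no p-value can be given. The age and sex of the mice, and how many were pooled, are not given in the sources used here.

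Prrx1 and Prrx2 are paired-related homeobox genes that mark limb bud mesenchyme and act together in forming the limb skeleton. Twist2 encodes a basic helix-loop-helix repressor of mesenchyme and dermis, and Meox1 and Meox2 are homeobox genes of the somite, the embryonic source of axial skeleton and muscle. Tbx15 and Tbx18 are closely related T-box genes of mesenchyme, Tbx5 starts the forelimb bud, Pitx1 gives the hindlimb its identity and Shox2 is needed for the bones of the upper limb segment. The femur and tibia are hindlimb bones.

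The signal is a linear, scaled intensity per probe set, and a signal at or below 75.4, the pooled median of the 3 arrays without control probe sets, was treated as a floor. A gene was read from the probe set whose mean signal was highest, and counted as measured if any of the 3 arrays read above the floor, which held for 12643 genes and all 10 factors. Genes were counted when at least 4-fold apart, which is a size rule and not a test. As a yardstick, 2 probe sets of the same gene disagreed on a log2 difference with an SD of 0.54 for ALCAM+ over double-negative cells, 0.67 for Sca-1+ over double-negative cells and 0.75 for ALCAM+ over Sca-1+ cells (4152 genes). Only probe sets above the floor on all 3 arrays were used for it. How far separate sorts or mice would differ was not measured.

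Alcam itself was at 267.7 in ALCAM+, 41.1 in Sca-1+ and 36.3 in double-negative cells, and Ly6a, which encodes Sca-1, was not analysed here. Marker lists set the populations apart. The signals of 5 osteoblast genes summed to 122462 in ALCAM+, 8588 in Sca-1+ and 45348 in double-negative cells, and those of 5 chondrocyte genes to 96131, 3754 and 96617. The 6 fibroblast genes summed to 5617 in ALCAM+, 86644 in Sca-1+ and 2387 in double-negative cells. Most of the ALCAM+ sum was Pdgfra, at 5121.8 in ALCAM+, 11647.4 in Sca-1+ and 671.5 in double-negative cells. Dpt, Cd34, Thy1 and Mfap5 were lower in ALCAM+ than in double-negative cells, and Pi16 was below the floor in both. The 5 erythroid genes summed to 295.4, 156 and 15674 and the 5 proliferation genes to 1109.6, 1008 and 20652 in the same order, so red cell precursor and cell division genes were bright in the double-negative array. The 5 neutrophil genes summed to 247, 12220.4 and 2214. Of these, 1 was above the floor in ALCAM+, 5 in Sca-1+ and 3 in double-negative cells, and Mpo alone was highest in double-negative cells. Ptprc, which encodes the gated marker CD45, read 11.6, 163 and 159. The 6 endothelial genes summed to 178, 759 and 142, with Pecam1, Cdh5, Emcn and Tie1 below the floor on every array. Most of the Sca-1+ sum was Tek, which encodes an angiopoietin receptor, at 28.8 in ALCAM+, 630.6 in Sca-1+ and 18.8 in double-negative cells. In such bulk samples, fewer cells of a type and less RNA per cell cannot be told apart, and the part of these other cells in the signals below was not tested.

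Upstream sequences are shown for the paralogues Prrx1 and Prrx2, for Meox2, which differed most between populations, and for Shox2, which ran the opposite way. Each is the 250 bases before the annotated RefSeq start in GRCm38.p6, read 5′ to 3′ along the gene, at chr1:163313651-163313900 (minus strand), chr2:30845117-30845366 (plus strand), chr12:37108290-37108539 (plus strand) and chr3:66981772-66982021 (minus strand). Capitals mark TAAT, the core that many homeodomain proteins bind, searched on both strands with overlaps counted.
Prrx1: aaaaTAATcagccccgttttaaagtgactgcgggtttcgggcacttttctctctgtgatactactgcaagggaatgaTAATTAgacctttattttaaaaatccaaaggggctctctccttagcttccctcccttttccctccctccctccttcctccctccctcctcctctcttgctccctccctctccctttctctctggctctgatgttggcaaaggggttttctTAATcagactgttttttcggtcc
Prrx2: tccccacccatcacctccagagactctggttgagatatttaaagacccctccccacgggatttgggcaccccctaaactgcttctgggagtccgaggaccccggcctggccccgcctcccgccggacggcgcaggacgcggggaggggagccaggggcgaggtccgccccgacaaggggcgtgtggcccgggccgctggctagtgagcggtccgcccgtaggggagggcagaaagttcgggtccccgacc
Meox2: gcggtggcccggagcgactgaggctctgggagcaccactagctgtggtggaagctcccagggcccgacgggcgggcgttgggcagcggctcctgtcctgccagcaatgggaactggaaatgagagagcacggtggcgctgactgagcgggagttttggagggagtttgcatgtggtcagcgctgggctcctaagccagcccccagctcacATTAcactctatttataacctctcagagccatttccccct
Shox2: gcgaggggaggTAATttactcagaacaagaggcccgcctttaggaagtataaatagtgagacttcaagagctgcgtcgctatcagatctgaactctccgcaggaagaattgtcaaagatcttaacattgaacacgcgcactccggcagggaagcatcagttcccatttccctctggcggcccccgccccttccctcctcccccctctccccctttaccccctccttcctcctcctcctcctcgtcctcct
The Prrx1 window held 4 matches to TAAT, of which a pair overlapped as TAATTA. The Meox2 and Shox2 windows held 1 match each and the Prrx2 window 0. Of the 6 factors with an upstream entry, which also include Twist2 and Tbx18, 5 held TAAT, as did 54.9% of all 32851 entries. TAATTA was in 1 of the 6 and in 4.84% of all entries. CANNTG, the E-box that basic helix-loop-helix factors bind, was in 2 of the 6, Meox2 and Tbx18, and in 66.2% of all entries. These are matches of letters, and say nothing of binding. The windows differed in base composition, with 47.6% G and C for Prrx1, 70.0% for Prrx2, 62.0% for Meox2 and 55.6% for Shox2, against a median of 52.4% over all entries.

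Sca-1+ cells had the highest signal for 9 of the 10 genes, and Shox2 was the exception. Tbx5 counted as measured only through Sca-1+ cells, so its place among the 9 was fixed by that rule. Pitx1 was among them by only 1.05-fold. Over all measured genes, 28.1% had their highest signal in ALCAM+ cells, 38.7% in Sca-1+ cells and 33.2% in double-negative cells. The lowest signal lay in ALCAM+ cells for 5 of the genes (Prrx2, Twist2, Pitx1, Meox1 and Meox2), in double-negative cells for 3 (Prrx1, Tbx15 and Tbx18) and in Sca-1+ cells for Shox2, while Tbx5 was below the floor in both other populations and has no lowest one. Scaled on the spiked-in control RNAs instead, Tbx15 was lowest in ALCAM+ cells, as was Tbx18 under the poly-A set of controls. All 10 were above the floor in Sca-1+ cells, 8 in ALCAM+ cells and 9 in double-negative cells. Over all non-control probe sets, 48.9% were above it in Sca-1+ cells, 49.7% in ALCAM+ cells and 51.4% in double-negative cells. The factors were read from the probe set with the highest mean signal, so these shares and the counts are not alike. Of the 21 probe sets, 18 were above the floor on some array, and 16 of those were highest in Sca-1+ cells, the others being both probe sets of Shox2. The Tbx5 probe set and the dimmest of these for Prrx1 were above the floor only in Sca-1+ cells, so their order was fixed too. No share over all genes was taken for that count or for the lowest signals.

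**Figure D1:**
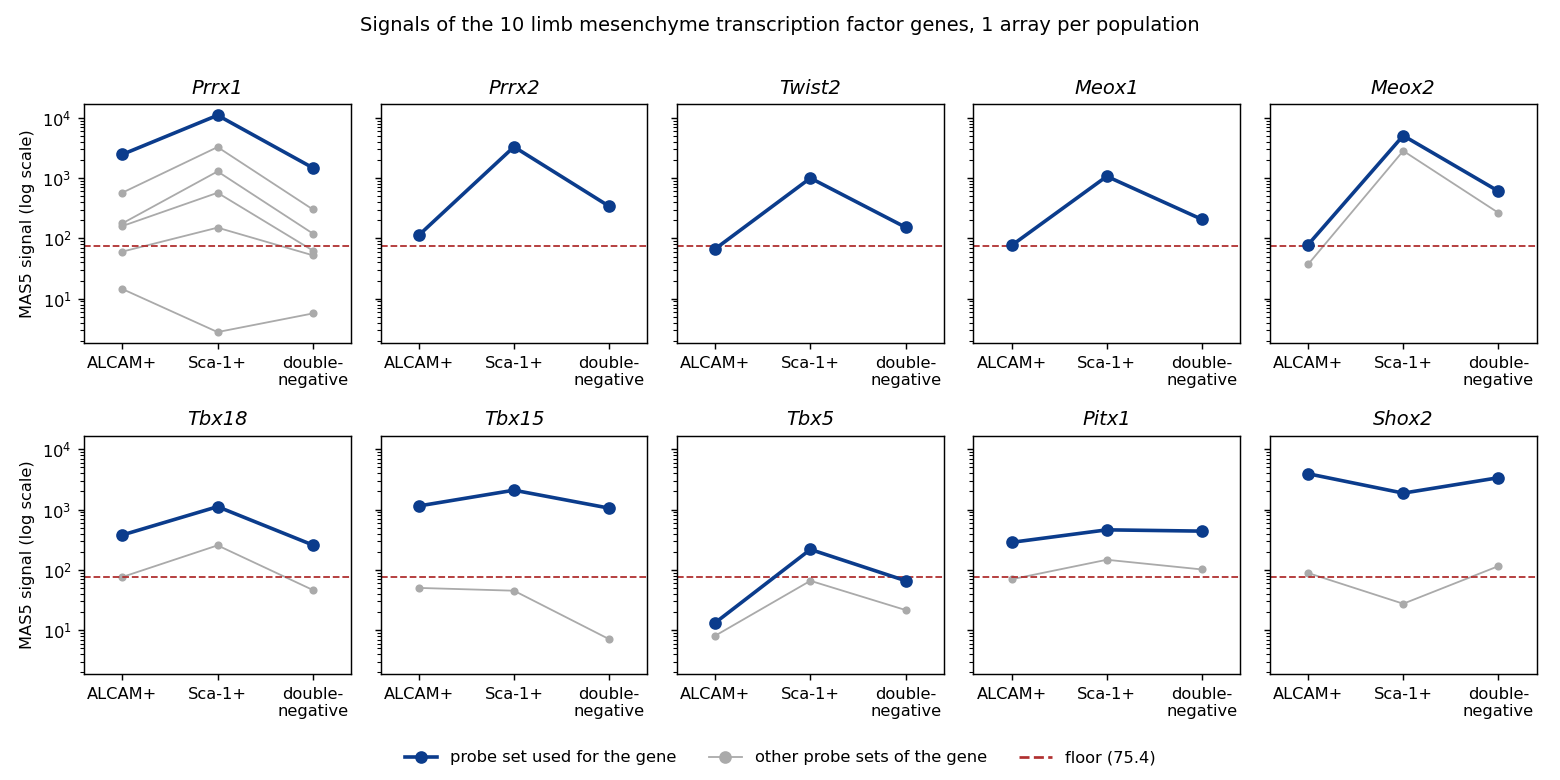
MAS5 signal (log axis) of every probe set of the 10 genes in ALCAM+, Sca-1+ and double-negative cells, 1 array each, with the probe set used for the gene in blue, the others in grey and the floor of 75.4 dashed. Sca-1+ cells stand highest in 9 panels, with the steepest profile for Meox2 and the opposite one for Shox2.

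Prrx1 had a signal of 2468 in ALCAM+ cells, 11002 in Sca-1+ cells and 1481 in double-negative cells. It was above the floor in all 3 populations, with Sca-1+ cells far above the other two. The signal was 7.43-fold higher in Sca-1+ than in double-negative cells and 4.46-fold lower in ALCAM+ than in Sca-1+ cells. ALCAM+ cells were 1.67-fold above double-negative cells, a log2 difference of 0.74 that is somewhat larger than the SD between probe sets, but was 0.11 under poly-A and 0.24 under hybridization scaling, both under that SD. The 4 other probe sets of Prrx1 above the floor also peaked in Sca-1+ cells, with signals there from 151 to 3268. A sixth probe set stayed below the floor on every array, at 14.5 in ALCAM+, 2.8 in Sca-1+ and 5.7 in double-negative cells.

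Prrx2, its paralogue, had a signal of 113 in ALCAM+ cells, 3301 in Sca-1+ cells and 340.4 in double-negative cells from its only probe set. It was 9.70-fold higher in Sca-1+ than in double-negative cells and 29.3-fold lower in ALCAM+ than in Sca-1+ cells. Unlike Prrx1, Prrx2 had its lowest signal in ALCAM+ cells, 3.02-fold below double-negative cells. The log2 differences of ALCAM+ over double-negative cells were 0.74 for Prrx1 and -1.59 for Prrx2, a gap of 2.33 against an SD of 0.54 between probe sets of a gene. That SD compares probe sets of the same gene and is not the error of a gap between 2 genes. With Prrx2 raised to a floor at the pooled 75th percentile, its difference was 0.

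Twist2 had a signal of 67.0 in ALCAM+ cells, which is below the floor, 1001 in Sca-1+ cells and 153 in double-negative cells. It was 6.55-fold higher in Sca-1+ than in double-negative cells, and at least 13.3-fold lower in ALCAM+ than in Sca-1+ cells. With a floor raised to 433.8 (75th percentile) neither difference reached 4-fold, with log2 values of 1.21 and -1.21. The gene has 1 probe set on the array, so no other probe set bears on it.

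Meox2 covered the widest range of the 10 genes. Its signal was 78.4 in ALCAM+ cells, just above the floor, 5061 in Sca-1+ cells and 606 in double-negative cells. It was 8.35-fold higher in Sca-1+ than in double-negative cells, 7.73-fold lower in ALCAM+ than in double-negative cells and 64.6-fold lower in ALCAM+ than in Sca-1+ cells. With a floor raised to 433.8 (75th percentile) the log2 difference of ALCAM+ over double-negative cells was -0.48 in place of -2.95. Only 0.174% of measured genes were as far or further below Sca-1+ cells in ALCAM+ cells. The other Meox2 probe set read 37.0 in ALCAM+, 2825 in Sca-1+ and 265 in double-negative cells, the same order. The brighter probe set is of a type (suffix _s_at) that can match more than a single transcript.

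Meox1 had a signal of 76.4 in ALCAM+ cells, 1069 in Sca-1+ cells and 206 in double-negative cells, the same order as Meox2 over a narrower range. It was 5.19-fold higher in Sca-1+ than in double-negative cells and 14.0-fold lower in ALCAM+ than in Sca-1+ cells. With a floor raised to 433.8 (75th percentile) neither difference reached 4-fold, with log2 values of 1.30 and -1.30. Its ALCAM+ signal lay at the floor's edge, and ALCAM+ cells were 2.70-fold below double-negative cells. Both Meox genes are known from muscle formation. Of the 8 muscle lineage genes, 6 (Pax7, Myf5, Myod1, Myog, Actc1 and Ckm) were below the floor on all 3 arrays. Their list summed to 712 in ALCAM+, 283 in Sca-1+ and 471 in double-negative cells. Most of the ALCAM+ sum came from Chrna1, a subunit of the muscle acetylcholine receptor, at 421 there. Des was above the floor on all 3 arrays, at 119 in ALCAM+, 173 in Sca-1+ and 145 in double-negative cells. The part of muscle lineage cells in the Meox signals was not tested.

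The T-box pair differed less. Tbx18 had a signal of 379 in ALCAM+ cells, 1118 in Sca-1+ cells and 259 in double-negative cells, and was 4.32-fold higher in Sca-1+ than in double-negative cells. Its dimmer probe set was also highest in Sca-1+ cells, with 76.3 in ALCAM+, 255 in Sca-1+ and 46.5 in double-negative cells. Tbx18 passed 4-fold narrowly, and with all probe sets averaged or the floor at the pooled 75th percentile it did not. ALCAM+ cells were 1.47-fold above double-negative cells, a log2 difference of 0.55 that is about the size of the disagreement between probe sets and turned to -0.08 under poly-A scaling. Tbx18 is also known as a gene of mural cells, the cells around small vessels. The 6 pericyte and smooth muscle genes summed to 10259 in ALCAM+, 10146 in Sca-1+ and 16128 in double-negative cells. Most of the ALCAM+ sum was Cspg4, at 8932 in ALCAM+, 3278 in Sca-1+ and 10408 in double-negative cells. The 6 did not move together in Sca-1+ over double-negative cells. Rgs5 was higher by 8.45-fold and Kcnj8 by at least 6.55-fold. Tagln was 8.06-fold lower, Cspg4 3.18-fold lower, and Acta2 within 1.08-fold. Myh11, which defines smooth muscle, was below the floor in ALCAM+ and Sca-1+ cells. The part of such cells in the Tbx18 signal was not tested.

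Tbx15 had a signal of 1148 in ALCAM+ cells, 2097 in Sca-1+ cells and 1057 in double-negative cells. Sca-1+ cells were 1.98-fold above double-negative cells and ALCAM+ cells 1.83-fold below Sca-1+ cells, both short of 4-fold, while ALCAM+ cells were 1.09-fold above double-negative cells, or below them under either spike-in scaling. Its second probe set was below the floor on the 3 arrays.

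Tbx5 and Pitx1 are the genes that set limb type. Tbx5 was above the floor only in Sca-1+ cells, with 13.3 in ALCAM+, 218 in Sca-1+ and 66.1 in double-negative cells, and was higher by at least 2.90-fold in Sca-1+ than in either other population. As the other populations were below the floor, these folds are bounds that move with it. The log2 difference of ALCAM+ over Sca-1+ cells was -1.53, but -3.37 with a floor of 21.1 (25th percentile) and 0 with a floor of 433.8 (75th percentile). The dimmer Tbx5 probe set was below the floor on all 3 arrays and gives no order. Pitx1 had a signal of 286 in ALCAM+ cells, 462 in Sca-1+ cells and 439.5 in double-negative cells. Sca-1+ cells lay 1.05-fold above double-negative cells, well within the SD between probe sets, and ALCAM+ cells were 1.54-fold below double-negative cells, a log2 difference of -0.62 close to the SD between probe sets that was -1.25 under poly-A scaling. Its dimmer probe set had 69.9 in ALCAM+, 147 in Sca-1+ and 102 in double-negative cells, with Sca-1+ cells 1.45-fold above double-negative cells.

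Shox2 had a signal of 3932 in ALCAM+ cells, 1875 in Sca-1+ cells and 3377 in double-negative cells. It was 2.10-fold higher in ALCAM+ than in Sca-1+ cells, a log2 difference of 1.07 that was 0.18 under poly-A scaling, and 1.80-fold lower in Sca-1+ than in double-negative cells. Its dimmer probe set was also lowest in Sca-1+ cells, with 88.9 in ALCAM+, 27.5 in Sca-1+ and 116 in double-negative cells. The chondrocyte and osteoblast genes were likewise lower in Sca-1+ than in the other populations by the sums given above, and their part in the Shox2 signal was not tested.

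For ALCAM+ over double-negative cells, of the 10 genes 0 were higher by at least 4-fold in ALCAM+ cells, against 2.01% of measured genes. Meox2 was the single gene lower by at least 4-fold, against 2.67% of measured genes. At 2-fold the lower genes were Prrx2, Twist2, Meox1 and Meox2, which is 4 of 10 against 10.6% of measured genes, and 0 were higher, against 6.68%. The median log2 difference was -0.31, beside -0.03 over all measured genes.

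For Sca-1+ over double-negative cells, of the 10 genes 6 were higher by at least 4-fold in Sca-1+ cells (Prrx1, Prrx2, Twist2, Tbx18, Meox1 and Meox2), against 5.46% of measured genes, and 0 were lower by at least 4-fold, against 4.71%. At 2-fold Tbx5 joined them, giving 7 higher against 15.0% of measured genes and 0 lower against 12.7%. The Tbx5 fold is a bound set by the floor, and Tbx5 counted as measured only through Sca-1+ cells. The median log2 difference was 2.24, beside 0 over all measured genes. The 6 genes lay between 4.32-fold for Tbx18 and 9.70-fold for Prrx2. The 6 fibroblast markers ran in the same comparison between 17.3-fold for Pdgfra and at least 182-fold for Pi16.

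ALCAM+ over Sca-1+ cells shares an array with each of the comparisons above. Of the 10 genes 5 were lower by at least 4-fold in ALCAM+ cells (Prrx1, Prrx2, Twist2, Meox1 and Meox2), against 5.86% of measured genes, and 0 were higher by at least 4-fold, against 3.99%. At 2-fold 7 genes were lower, with Tbx18 and Tbx5 added, against 15.8% of measured genes, and Shox2 was higher, against 11.2%. Tbx5 was again counted by a bound set by the floor. The median log2 difference was -1.86, beside -0.01 over all measured genes. Prrx1 was at the lower end of the 5 and no longer passed 4-fold when its 6 probe sets were averaged.

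**Figure D2:**
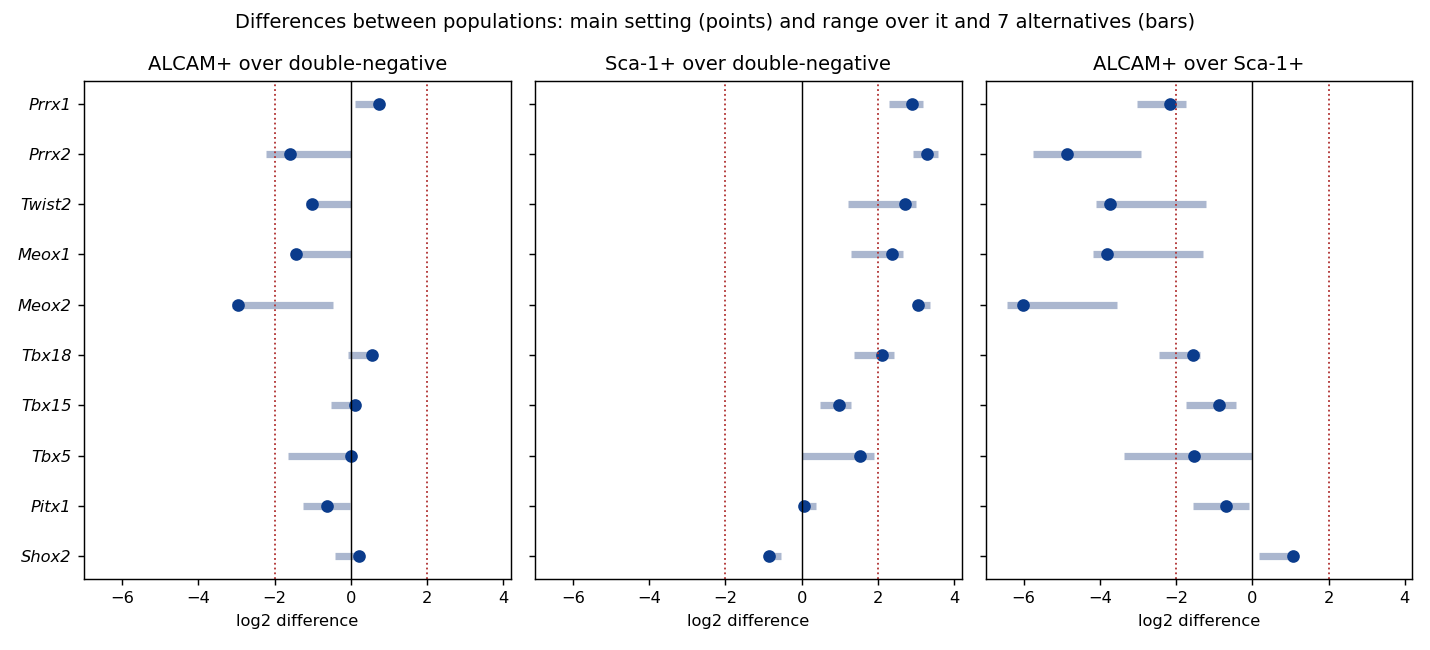
Log2 differences of the 10 genes in the 3 comparisons, with points for the values as reported, bars for the range over these and 7 alternative settings, and dotted lines at 4-fold. In Sca-1+ over double-negative cells, Prrx1, Prrx2 and Meox2 stay beyond 4-fold over the whole bar, and in ALCAM+ over Sca-1+ cells Prrx2 and Meox2 do.

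**Figure D3:**
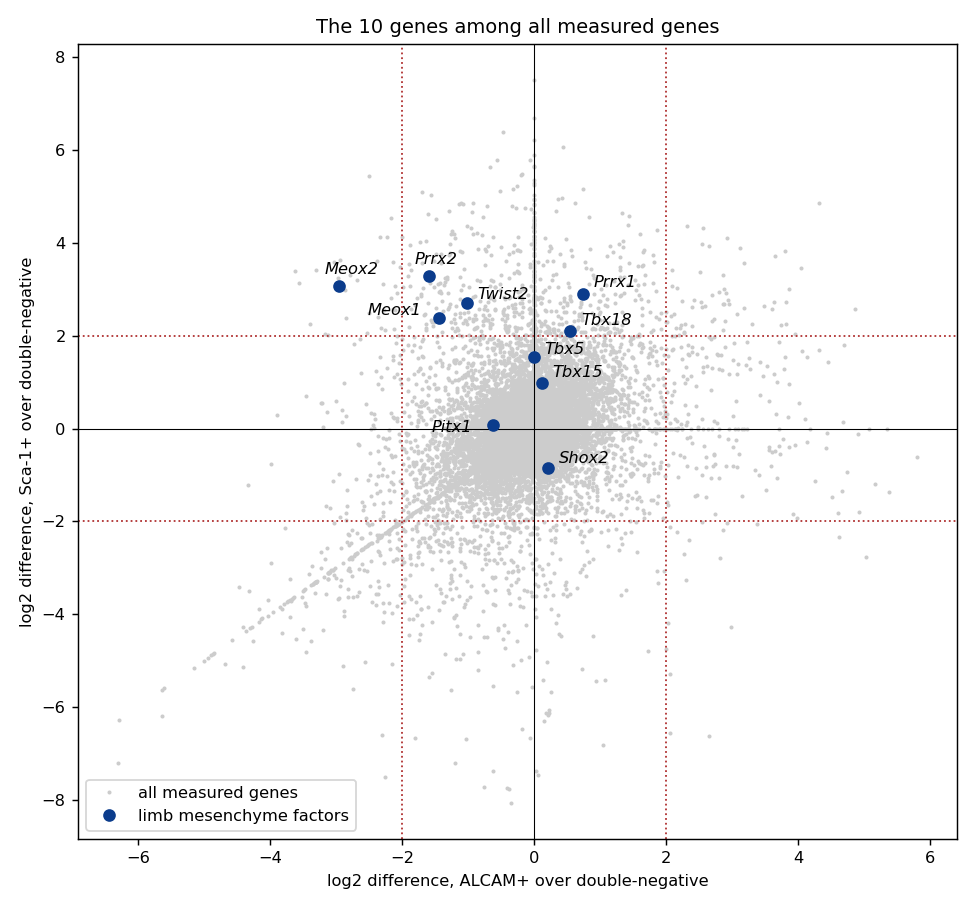
Log2 difference of ALCAM+ over double-negative cells (x axis) and of Sca-1+ over double-negative cells (y axis) for the 12643 measured genes (grey) and the 10 factors (blue), with dotted lines at 4-fold. Both axes share the double-negative array, which by itself draws points to the diagonal. Meox2, Prrx2, Meox1 and Twist2 lie left of 0 and Prrx1 and Tbx18 right of it at similar heights, although Tbx18 moves to -0.08 under poly-A scaling.

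Relatives of the same gene families were read in the same way. Of 19 listed relatives 17 had a probe set of their own and 11 were measured. Higher by at least 4-fold in Sca-1+ than in double-negative cells were 2 of the 11, against 5.46% of measured genes, and 0 were lower, against 4.71%. Tbx4, the T-box gene of the hindlimb, had 43.7 in ALCAM+, 1008 in Sca-1+ and 120 in double-negative cells, 8.41-fold higher in Sca-1+ than in double-negative cells. Twist1, the paralogue of Twist2, had 1509 in ALCAM+, 2204 in Sca-1+ and 419 in double-negative cells, 5.26-fold higher in Sca-1+ and 3.60-fold higher in ALCAM+ than in double-negative cells. Tbx2 was the single relative higher by at least 4-fold in ALCAM+ than in double-negative cells, against 2.01% of measured genes, and 0 were lower, against 2.67%. It had 1298 in ALCAM+, 86.5 in Sca-1+ and 72.6 in double-negative cells (at least 17.2-fold). Msc, a basic helix-loop-helix gene, had 63.8 in ALCAM+, 266 in Sca-1+ and 10.6 in double-negative cells. In ALCAM+ over Sca-1+ cells Tbx2 was 15.0-fold higher and Tbx4 at least 13.4-fold lower. Each was the single relative at least 4-fold apart that way, against 3.99% of measured genes higher and 5.86% lower. The median over the 11 was 0 in each comparison. Each time the middle gene had both signals below the floor, so this 0 is set by the floor and is no measured lack of difference.

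Of 34 other transcription factors of limb patterning and limb connective tissue, 32 had a probe set of their own and 25 were measured. In Sca-1+ over double-negative cells 5 of the 25 were higher by at least 4-fold, against 5.46% of measured genes, and 0 lower, against 4.71%. Their median log2 difference was 0.53. Of the odd-skipped genes of connective tissue, Osr1 was at least 6.83-fold and Osr2 8.01-fold higher. Osr1 counted as measured only through Sca-1+ cells, at 515, so its direction was fixed by that rule and its fold is a bound. Of the homeobox genes of the proximal limb bud, Meis1 was at least 8.59-fold and Meis2 8.82-fold higher, and Zeb2, a zinc finger repressor of epithelial genes, was 6.19-fold higher. In ALCAM+ over double-negative cells 3 of the 25 were higher by at least 4-fold, against 2.01% of measured genes, and 0 lower, against 2.67%, with a median of 0.34. These were Irx5, an Iroquois homeobox gene, at 12.6-fold, Tcf7l2, a Wnt pathway factor, at 4.55-fold, and Zeb2 at 6.06-fold. Dlx5, a homeobox gene of osteoblasts, had 804 in ALCAM+, 189.7 in Sca-1+ and 430.3 in double-negative cells, and was 4.24-fold higher in ALCAM+ than in Sca-1+ cells. In ALCAM+ over Sca-1+ cells 3 of the 25 were higher by at least 4-fold, against 3.99% of measured genes, and 3 lower, against 5.86%, with a median of -0.09. Osr1 was among the lower genes, and its direction was again fixed by the rule for measured genes.

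**Figure D4:**
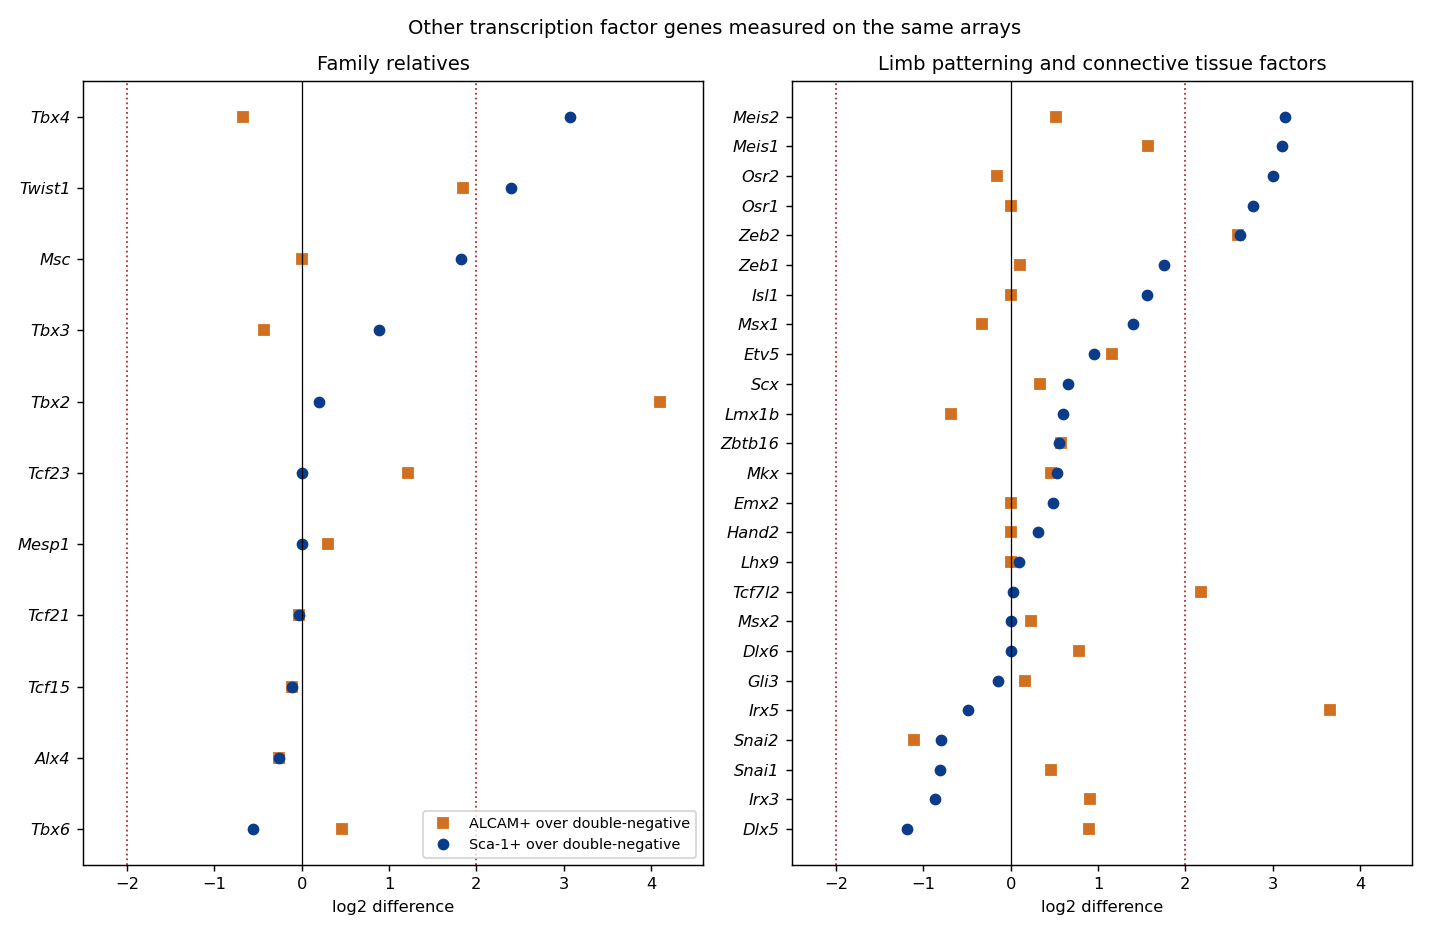
Log2 differences of ALCAM+ (squares) and Sca-1+ (circles) over double-negative cells for the 11 measured family relatives (left) and the 25 other measured limb factors (right), with dotted lines at 4-fold. Tbx4, Meis1, Meis2, Osr1 and Osr2 lie beyond 4-fold in Sca-1+ cells, Tbx2, Irx5 and Tcf7l2 in ALCAM+ cells, and Zeb2 in both.

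Profiles most like those of the 8 factors above the floor on all 3 arrays were sought among the other 9878 such genes, by the root mean square distance of log2 signals centred on their mean over the 3 arrays. Prrx1 was nearest to Sgsh, Tmem106a and Mapkapk3 (distances 0.07 to 0.08) and Prrx2 to Ahnak2, Gpr137b and Fam124a (0.07 to 0.12). Tbx18 was nearest to Thbs2, Tcim and Dact1 (0.03 to 0.04), and Meox1 to Capn5, Mtmr11 and Lynx1 (0.01 to 0.04). Meox2 was nearest to S100a8, Serpina3n and Vcan (0.02 to 0.09), the only 3 of the genes searched within 0.25 of it. Meox2 and Meox1 lay close to the floor in ALCAM+ cells, at 78.4 and 76.4. Genes with like ratios but dimmer signals were thus left out of the search, which lowers the number found near them. Within the same distance lay 43 genes for Prrx1, 30 for Prrx2, 40 for Meox1 and 175 for Tbx18. For the flatter profiles the nearest genes were Atg4c, Wasf2 and Rmdn1 for Tbx15, Fbxo45, Gcsh and Ahsa1 for Pitx1, and Lsm8, Egr2 and Arid3a for Shox2. These carry little information, since 1250, 1733 and 1024 genes lay within 0.25 of Tbx15, Pitx1 and Shox2. With only 3 values a profile, likeness says no more than that the ratios between the arrays were close.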

How the data were processed

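Total RNA of each sorted population was amplified by a 2-cycle assay that yields biotin-labelled cRNA and hybridised to 1 array, per the labels' protocols. Amplified cRNA is biased to transcript 3′ ends. The values are signal intensities on a linear scale for 45101 probe sets, which the authors computed with MAS5 according to the submitters' processing notes. Its version was not given in the sources used here. The deposited trimmed mean (2% from each end) was 500 on each array, so the deposited scale was kept. Arrays with equal means cannot show a difference in total RNA, and their number limits the precision.

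The 64 control probe sets were left out. Of the other 45037, 34945 had 1 gene symbol in the array's annotation table, 932 had several and 9160 had no entry and stay unnamed. Of the 34945, 34741 were found by Entrez identifier in a RefSeq table (GRCm38.p6), which changed 0 symbols. Upstream sequences are from RefSeq, build GRCm38.p6. A fold whose dimmer side did not exceed the floor was computed against the floor and is a lower bound. No test was run. Named are all 10 factors, members of both comparison lists at least 4-fold apart in any comparison (or the 4 furthest apart if fewer), the 3 nearest profiles and the sorting and cell type markers. Factors and lists were chosen with earlier results of these data known. Calculations used Python 3.11.15, numpy 2.4.6 and pandas 2.3.3, and were tested on simulated data.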

Additional observations from a re-analysis of the deposited data

How the results depend on the processing

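Each value was recomputed under 7 alternatives, and counts also at 2-fold. No paired analysis was possible because each population has 1 array. Choosing the probe set with the largest signal on any array, or quantile normalization, left every count of factors within 1.5 times its value. With a higher floor, the pooled 75th percentile (433.8), the factors at least 4-fold apart became 0 lower in ALCAM+ than in double-negative cells, 3 higher in Sca-1+ than in double-negative cells (median 1.30) and 3 lower in ALCAM+ than in Sca-1+ cells, since more dim signals are raised to the floor. With the floor at the 25th percentile (21.1) the medians were -0.90 for ALCAM+ over double-negative and -2.76 for ALCAM+ over Sca-1+ cells. Scaling on the poly-A or the hybridization controls moved the median of all genes by over 0.1, to -0.58 and -0.46 for ALCAM+ over double-negative, 0.20 and 0.24 for Sca-1+ over double-negative and -0.82 and -0.74 for ALCAM+ over Sca-1+ cells. The factors' medians less those of all genes were then -0.24 and -0.27, 2.29 and 2.30, and -1.92 and -1.91. Factors lower by at least 4-fold in ALCAM+ than in double-negative cells became 2 under either scaling, and the median of ALCAM+ over Sca-1+ cells -2.74 and -2.65. Under poly-A scaling the log2 difference of ALCAM+ over double-negative cells turned to -0.51 for Tbx15, -0.08 for Tbx18 and -0.41 for Shox2, against 0.12, 0.55 and 0.22 as deposited. Under hybridization scaling it was -0.38, 0.06 and -0.28. At 2-fold, 4 factors were lower in ALCAM+ than in double-negative cells and 1, Shox2, was higher in ALCAM+ than in Sca-1+ cells.

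Over all measured genes, 254 were higher by at least 4-fold and 338 lower in ALCAM+ than in double-negative cells. These became 168 and 194 with probe sets averaged, 122 and 86 with the floor at the 75th percentile, 144 and 665 under poly-A scaling, 163 and 559 under hybridization scaling and 845 and 1339 at 2-fold, and the lower genes 584 with the floor at the 25th. Between Sca-1+ and double-negative cells 690 were higher and 595 lower, against 345 and 223 with the floor at the 75th percentile, 1894 and 1606 at 2-fold and 459 higher with probe sets averaged. Between ALCAM+ and Sca-1+ cells 504 were higher and 741 lower, against 256 and 356 with the floor at the 75th percentile, 272 and 1584 under poly-A scaling, 288 and 1437 under hybridization scaling and 1416 and 1999 at 2-fold. The cause of the other changes was not tested.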

Other observations

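Tbx5, the gene that starts the forelimb bud, was above the floor in Sca-1+ cells (218), although the bones were those of the hindlimb. Its second probe set was below the floor on all 3 arrays. The hindlimb gene Tbx4 had a signal of 1008 in the same cells. The level of Tbx5 rests on 1 probe set on 1 array, and it did not exceed a floor set at the pooled 75th percentile.

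Among genes above the floor on all 3 arrays, the profile nearest to Meox2 was that of S100a8, which is on the list of neutrophil genes. It had 77.3 in ALCAM+, 4900.5 in Sca-1+ and 575.9 in double-negative cells. Ngp, Camp, Ltf and Mpo were below the floor in ALCAM+ cells and so were not searched. Other neutrophil genes had other ratios of Sca-1+ to double-negative cells. The ratio was 28.6 for Ngp, with Camp higher by at least 20.9-fold and Ltf by at least 14.8-fold, and Mpo was 14.8-fold lower, against 8.51-fold higher for S100a8 and 8.35-fold higher for Meox2. The part of neutrophils in the Meox2 signal was not tested.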
